A study of Mus musculus with 4 samples.

Results

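The histidine decarboxylase gene Hdc and 7 genes of mast cells were followed in the prostates of 4 mice, as 8 of 18256 genes with a symbol on the array. Members were the probes whose gene name in the array files was Hdc, Cpa3, Kit, Tpsb2, Tpsab1, Cma1, Mcpt4 or Fcer1a, and 9 of 41174 probes, covering 7 of the 8 genes, carried such a name. Tpsb2 is listed under its older name Mcpt6 and was added through its transcript accession, which gave 10 probes in all. The set was chosen by the Hdc log2 ratios, which were lower in both mutant mice, so the Hdc values are a description without a test. The question for the others was whether mast cell genes moved with it.

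The mutant group was 2 mice of genotype Rb1R654W/F:Trp53F/F:PB-cre4, with 1 Rb1 allele coding for the R654W protein, and the null group was 2 mice of genotype Rb1F/F:Trp53F/F:PB-Cre4, with both Rb1 alleles conditional. All 4 were 60 days old, of mixed C57BL/6:129/SVJae:FVB strain, untreated, and conditional for Trp53. PB-Cre4 is driven by a probasin promoter and acts in prostate epithelium, so mast cells and other stromal cells of these mice are not its targets. By its label the R654W allele is not conditional, so in the mutant mice those cells can carry it too. The Rb1 genotype of mast cells can therefore differ between the groups. Each mouse had 1 two-colour Agilent array, with its own RNA in red (Cy5) and RNA pooled from 3 wild-type mice in green (Cy3), and no dye swap.

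Histidine decarboxylase is the enzyme that makes histamine from histidine. Mast cells are tissue-resident immune cells that store histamine in granules together with proteases, and they depend on the receptor Kit and carry the high-affinity IgE receptor. Hdc is also known from basophils, from some myeloid cells and from the enterochromaffin-like cells of the stomach, so it is not a marker of mast cells alone.

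Probes of Hdc, both tryptases and Cma1 are shown first, each 5′ to 3′ as designed on the array, with positions in build mm7. They were picked among probes with a reading frame free of stop codons, not by their values. The probes of Cpa3 and Mcpt4 and the brighter Cma1 probe are not printed. The Hdc probe lies at chr2:126334633-126334692 on the minus strand. The Tpsb2 and Tpsab1 probes read neighbouring tryptase genes, at chr17:23550604-23550663 on the plus strand and chr17:23526786-23526845 on the minus strand. Capitals in these 2 mark the bases they share, 39 of the 57 that overlap when they are aligned without gaps, so signal of one tryptase on the probe of the other was not tested and may occur. The first Cma1 probe maps between 50810007 and 50811066 on chromosome 14, minus strand, a span longer than the probe's 60 bases. No annotation of mm7 was used here, so exon and UTR positions are not given.
Hdc: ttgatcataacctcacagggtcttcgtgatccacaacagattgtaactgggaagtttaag
Tpsb2: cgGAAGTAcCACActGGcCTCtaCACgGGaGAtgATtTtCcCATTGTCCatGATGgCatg
Tpsab1: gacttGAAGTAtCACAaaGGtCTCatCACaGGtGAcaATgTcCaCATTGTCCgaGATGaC
Cma1: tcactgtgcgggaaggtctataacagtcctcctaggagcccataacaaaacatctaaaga

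Null mouse 1 stood apart before any member was considered. Its median background-subtracted mouse signal was 20.5 scanner units, against 90.1 and 81.9 in mutant mice 1 and 2 and 55.1 in null mouse 2, while the pool channel was between 24.2 and 24.9 on all 4 arrays. Over 24852 probes its log2 ratios correlated at 0.156 with those of null mouse 2, which correlated at 0.528 and 0.575 with mutant mice 1 and 2. All 4 ratios share the pool, and probes are not independent replicates. Prostate epithelial markers were present, with 12 of the 12 on the array past the filter on dim probes. The brightest of these were Tgm4, a prostate transglutaminase, at 0.42 and 0.02 in mutant mice, against -0.03 and -0.19 in null mice, and the keratin gene Krt18, at 0.27 and -0.07 in mutant mice, against 0.85 and -0.11 in null mice. Others, named after their values were seen, set null mouse 1 further apart, in both directions. Msmb was at 1.93 and 0.68 in mutant mice, against -3.13 and -0.17 in null mice. Krt14 was at -0.45 and -0.46 in mutant mice, against 1.23 and -0.05 in null mice. All values below are log2 ratios of mouse over pool after background correction and loess, unless a signal is named. Results that rest on null mouse 1 are also given without it.

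Hdc was lower in the mutant mice and close to the pool in the null mice. Its mouse signal was 368 and 433 scanner units in mutant mice 1 and 2, against 273 and 633 in null mice 1 and 2. The same spots read 224 and 256 for the pool on the mutant arrays and 272 and 276 on the null arrays. The log2 ratios were -0.77 and -0.74 in the mutant mice, against 0.16 and 0.08 in null mice. The genotypes did not overlap, with mutant lower, as for 13.6% of all probes. The highest mutant and the lowest null value lay 0.82 apart, while the mice within each genotype lay 0.03 and 0.08 apart. These are the values by which it was chosen, so the gap is no test. Mutant mice averaged -0.76 ± 0.02 and null mice 0.12 ± 0.06 (SD, n = 2 each), a difference of -0.88. Divided by the median mouse signal of each array, the Hdc mouse signal was 4.08 and 5.29 in mutant mice, against 13.3 and 11.5 in null mice.

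The size of the Hdc difference depended on the scaling, and its direction did not. From Agilent processed signals Hdc was at -0.95 and -0.95 in the mutant mice, against 0.16 and -0.01 in null mice. With each array centred on its median in place of loess, it was at -0.13 and -0.11 in the mutant mice, against 0.04 and 0.62 in null mice, a difference of -0.445. That centring moved the median of all probes past the filter to 0.62 and 0.56 in the mutant mice and to -0.04 and 0.41 in the null mice. Relative to those medians Hdc was at -0.74 and -0.66 in the mutant mice, against 0.08 and 0.20 in null mice. In the authors' deposited table the Hdc mean ratio to the pool was 0.467 for mutant and 0.938 for null mice. By difference Hdc was number 223 from the most negative of 24914 probes, so many probes lay further from 0 than Hdc.

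**Figure D1:**
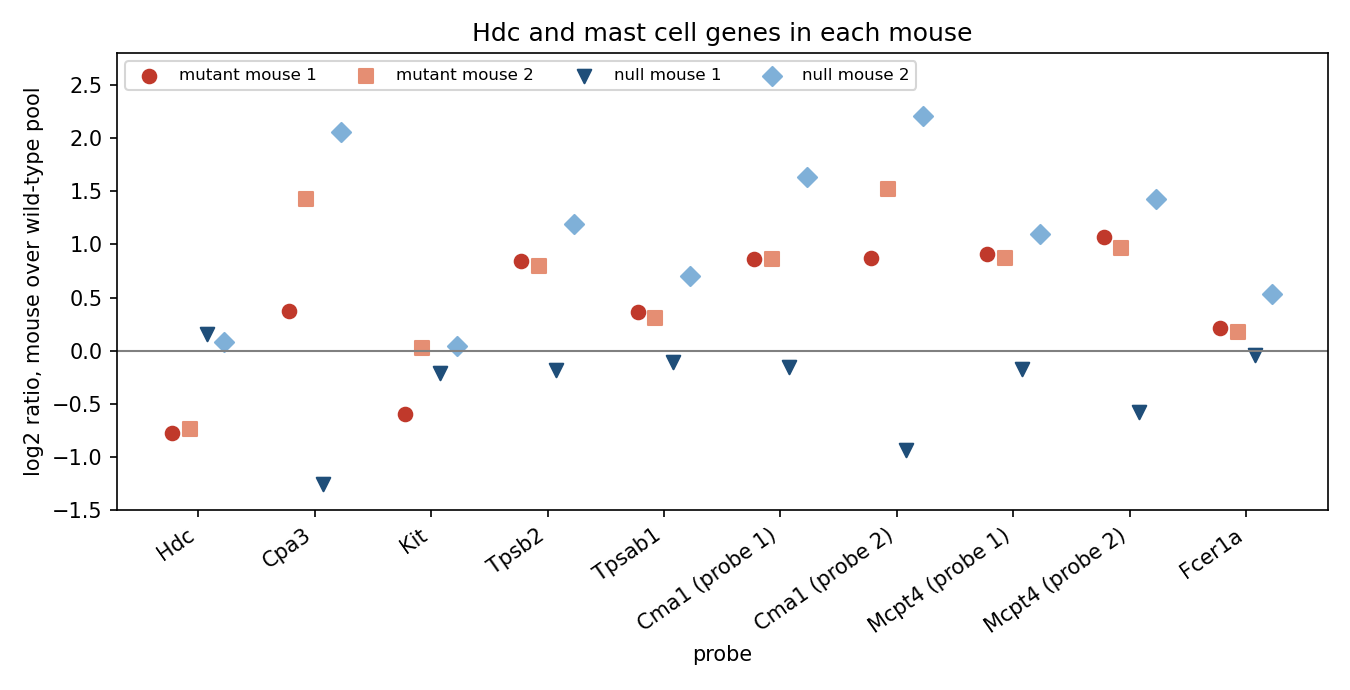
Log2 ratio of mouse over wild-type pool (vertical axis) for each of the 10 probes (horizontal axis), 1 point per mouse, with the pool at 0. Hdc is low in both mutant mice (-0.77 and -0.74), while the protease probes are lowest in null mouse 1 and highest in null mouse 2.

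The granule proteases followed another order. Cpa3, the carboxypeptidase A stored in mast cell granules, with its probe at chr3:19947691-19947750, was at 0.37 and 1.43 in mutant mice 1 and 2, against -1.25 and 2.06 in null mice 1 and 2. Null mouse 2 was the highest and null mouse 1 the lowest, and the mutant mice lay between them. The Cpa3 mouse signal was 462 and 1124 units in the mutant mice, against 2.61 and 1298 in null mice, and the pool read 100.5 to 109.6 on the 4 arrays. In null mouse 1 it was not well above background. Normexp with an offset draws ratios of dim spots towards 0, and the Agilent processed signals, with a surrogate value for that spot, gave -5.04 there.

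Cma1, a chymase of mast cell granules, was read by a pair of probes. The brighter probe, at 50808970 to 50809029 on chromosome 14, gave 0.87 and 1.53 in the mutant mice, against -0.93 and 2.20 in null mice. The dimmer one, shown above, gave 0.86 and 0.86 in the mutant mice, against -0.15 and 1.64 in null mice. Both probes put null mouse 1 below the pool and the other mice above it. The brighter probe had a mouse signal of 20.6 units in null mouse 1, against 693, 1074 and 1383 in mutant mice 1 and 2 and null mouse 2.

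Mcpt4, a chymase of connective tissue mast cells, lies on the same chromosome and also had a pair of probes. The brighter probe, at 50927105 to 50927164, gave 1.07 and 0.97 in the mutant mice, against -0.58 and 1.43 in null mice. The other, at 50927256 to 50927314, gave 0.91 and 0.87 in the mutant mice, against -0.17 and 1.096 in null mice. The mutant mice differed from each other by at most 0.10 on these probes, and the null mice by 2.01 and 1.26.

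The tryptases, which are proteases held in granules with heparin, were dimmer. Tpsb2 was at 0.84 and 0.79 in the mutant mice, against -0.18 and 1.19 in null mice. Its mouse signal was 165 and 156 units in the mutant mice, against 0.76 and 202 in null mice, and the pool read 10.97 to 14.13. Tpsab1 was at 0.36 and 0.31 in the mutant mice, against -0.10 and 0.70 in null mice. The pool was not well above background for Tpsab1 on any array, so its ratio to the pool is a bound. After loess this bound put the mutant mice at least 1.23-fold above the pool on their own arrays. Tpsab1 passed the filter on dim probes only through the mutant mice, which favours high mutant values. The bound is therefore no support for a difference. That bound holds for loess only. Tpsab1 was at 1.55 and 2.04 in mutant mice from processed signals, but at 0.33 and -0.03 with median centring. For Tpsb2 the pool was well above background on the array of null mouse 2 only. Among null mice, Tpsab1 was well above background in 1 of 2. As background, C57BL/6 mice are known for a splice defect in Tpsab1, and the strain share of each mouse is not given.

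**Figure D2:**
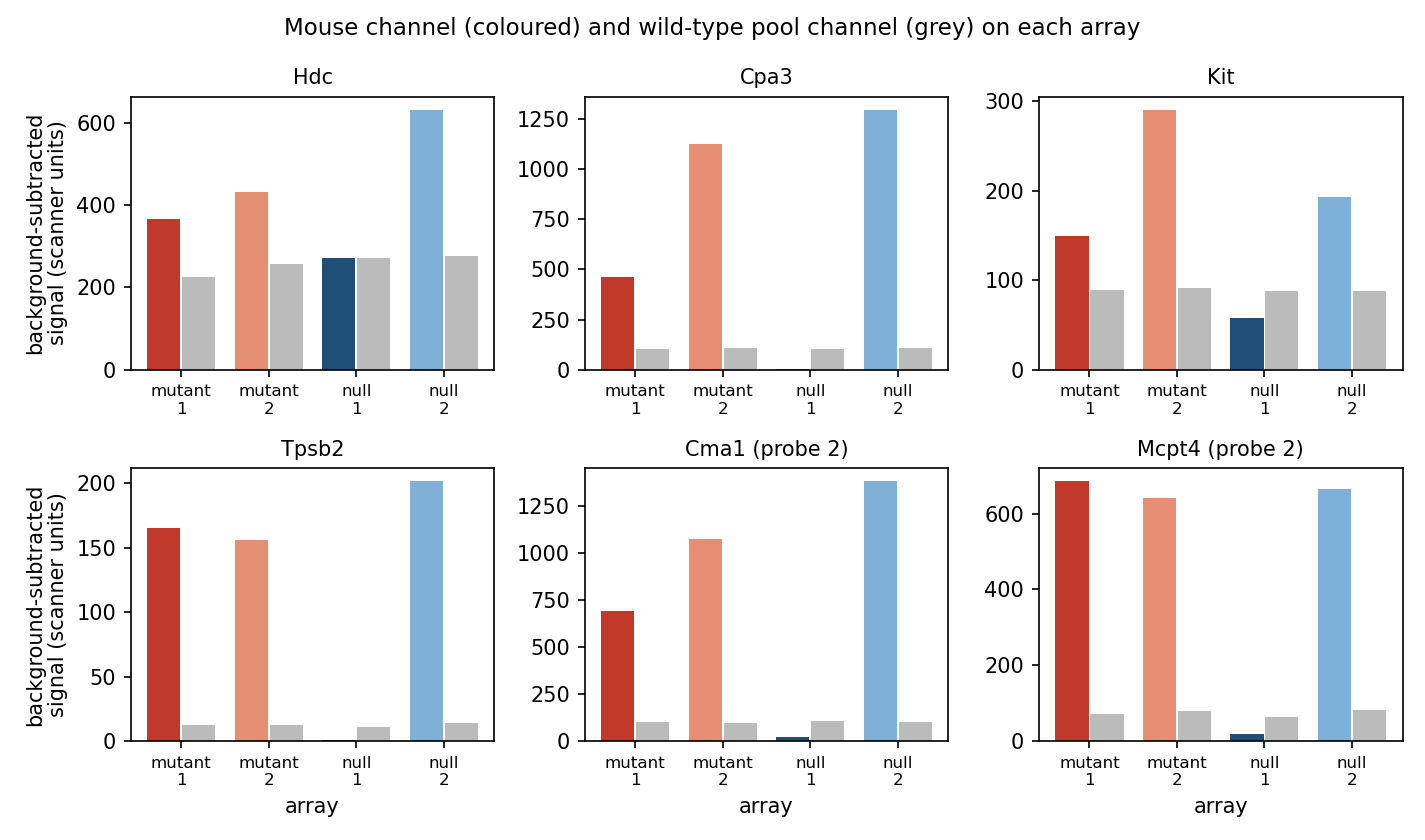
Background-subtracted signal in scanner units (vertical axes, each from 0) on the 4 arrays, for Hdc, Cpa3, Kit, Tpsb2 and the brighter probes of Cma1 and Mcpt4. Coloured bars are the mouse channel and grey bars the pool channel of the same spots. Hdc and Kit are measured in null mouse 1, at 273 and 57.6 units, while Cpa3 and Tpsb2 are at 2.61 and 0.76.

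Of the receptors, Kit, the receptor for stem cell factor, was at -0.59 and 0.03 in mutant mice 1 and 2, against -0.21 and 0.05 in null mice 1 and 2. Its single probe, at chr5:75074515-75074574, was printed as 10 spots on each array. The SD over those spots was 0.05 and 0.08 in the mutant mice, against 0.10 and 0.05 in null mice, where 1 spot of null mouse 1 was left out for its outlier flag. These SDs cover error within an array only. The mutant mice lay 0.62 apart and the null mice 0.26. The lowest Kit value was in mutant mouse 1 after loess, and in null mouse 1 after median centring, at -0.25 and 0.48 in mutant mice, against -0.30 and 0.36 in null mice. Kit is also made by interstitial and some epithelial cells, so it is not a mast cell marker alone in this tissue. Of 8 genes of interstitial and melanocytic cells, 4 passed. Ano1, a chloride channel of interstitial cells of Cajal, was -0.50 and -0.20 in mutant mice, against -0.02 and -0.21 in null mice, and Etv1, a transcription factor of those cells, was 0.46 and 0.09 in mutant mice, against 0.00057 and 0.18 in null mice. Ano1 was lowest in mutant mouse 1, and Etv1 was not.

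**Figure D3:**
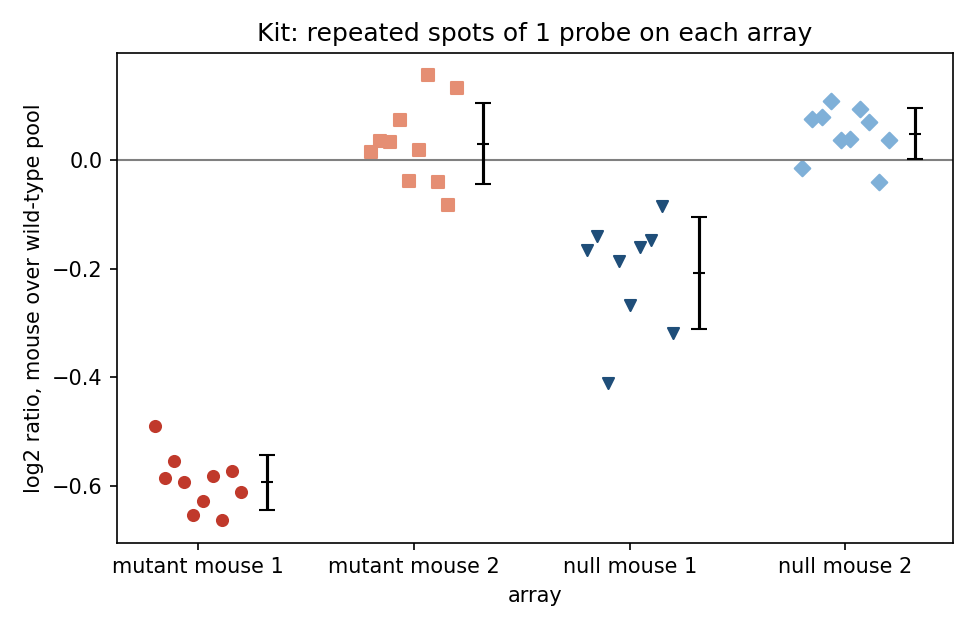
Log2 ratio of mouse over pool (vertical axis) for the repeated spots of the Kit probe on each array (horizontal axis), with the mean and SD of the spots as a bar. Spots of mutant mouse 1 lie between -0.66 and -0.49 and do not overlap those of any other mouse.

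Fcer1a, the alpha chain of the high-affinity IgE receptor, with its probe at chr1:173194818-173194877, was at 0.21 and 0.18 in the mutant mice, against -0.04 and 0.53 in null mice. Its mouse signal was 284 and 64.2 units in the mutant mice, against 8.18 and 61.9 in null mice. The spot of mutant mouse 1 was bright in both colours, with 66.2 units in the pool, where the same pool gave 7.34, 3.49 and 7.79 on the other arrays. Agilent processed signals, which do not draw dim ratios towards 0, gave 0.21 and 1.40 in the mutant mice, against 1.29 and 1.86 in null mice, so that mutant mouse 1 and not null mouse 1 was lowest there. For the protease probes null mouse 1 was lowest and null mouse 2 highest under processed signals and median centring too. Relative to the median of all probes after that centring, Tpsab1 was an exception, at -0.28 and -0.59 in mutant mice, against -0.04 and 0.29 in null mice.

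Set together, the 9 probes of the mast cell genes did not show the pattern of Hdc. The mouse channel was well above background for 9 and 9 of them in mutant mice 1 and 2, and for 4 and 9 in null mice 1 and 2. In null mouse 1 8 of the 9 were lowest, as were 37.6% of all probes, while Hdc was near the pool in both null mice. The count was 7 from processed signals, 9 with median centring and 6 with that centring relative to all probes. Which null mouse was higher for Hdc also turned, with null mouse 1 slightly higher after loess and null mouse 2 after median centring. In null mouse 1, 5 of the 9 lay at least 1 log2 unit below every other mouse, as did 1.61% of all probes. Both mutant mice were above the pool for 8 of the 9, with Kit as the exception, against 37.2% of all probes. None of the 9 was below the pool in both mutant mice, as 29.3% of all probes were. For 8 of the 9, both mutant mice and null mouse 2 were above the pool and null mouse 1 below it, against 11.4% of all probes. All 10 member probes passed the filter on dim probes, 3 of them (Tpsb2, Tpsab1 and Fcer1a) only through the mutant mice. High mutant values were favoured by the filter for these 3, so their part in the counts here and below is no support. In null mouse 1 neither of their channels was well above background, so its place against the pool is not resolved for them. Cma1 and Mcpt4 enter each count with a pair of probes. In whole tissue, fewer mast cells and less RNA per mast cell cannot be told apart.

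Between mutant and null mice, none of the 9 mast cell probes passed an adjusted p of 0.05 in limma, nor did any of 24914 probes (0%), and none of the 9 had an unadjusted p under 0.05, where 1.19% of all probes did so higher and 0.995% lower. Mutant minus null differences ran between -0.20 for Kit and 0.59 for the brighter Mcpt4 probe, with limma adjusted p of 0.985 for both. The 95% intervals were wide, at -2.34 to 3.33 for Cpa3 and -2.06 to 3.18 for the brighter Cma1 probe, which hold changes of several fold in either direction. They were narrower at -0.90 to 0.50 for Kit, -0.76 to 0.82 for Tpsab1 and -0.69 to 0.58 for Fcer1a, the last 2 being dim probes whose ratios are drawn towards 0. An exact permutation of 2 against 2 mice cannot go below p = 0.333. For 0 of the 9 were both mutant mice below both null mice, where 13.6% of all probes were, and for 0 were both above, where 16.7% were.

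The direction of the mast cell genes between the genotypes rested on which null mouse was read. Without null mouse 1, both mutant mice were below the remaining null mouse for 9 of the 9 probes, as for 30.3% of all probes, and the differences were -1.16 for Cpa3 and -1.01 for the brighter Cma1 probe. Without null mouse 2, both mutant mice were above the remaining null mouse for 8 of the 9, as for 42.2% of all probes, and the same differences were 2.15 and 2.13. The Hdc difference was -0.84 and -0.92 in those settings.

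Against the pool, none of the 9 was called in mutant mice, where limma called 0.00401% of all probes, and 1 (the dimmer Mcpt4 probe, higher) had an unadjusted p under 0.05, where 6.26% of all probes did so higher and 4.36% lower. None was called in null mice, where limma called 0%, and 0 had an unadjusted p under 0.05, against 4.84% of all probes higher and 5.38% lower. The mutant means were 0.90 ± 0.74 for Cpa3 and 1.20 ± 0.46 for the brighter Cma1 probe (SD, n = 2). Limma gave them adjusted p of 0.694 and 0.569. These tests hold the pool as 1 control sample, so variation among wild-type animals is not in the p, and any dye effect remains.

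The authors' deposited table, which holds group means of ratios, lists 6 of the 8 genes. It gives Mcpt4 as higher in mutant mice by 1.28 and 1.46 times. It gives Cpa3 as lower by 1.14 times, Tpsab1 by 2.0 times and Fcer1a by 1.53 times, each in the authors' deposited table. Its 8 Kit rows are lower in mutant mice by 1.14 to 1.31 times. Mean log2 ratios here put Cpa3 higher in mutant mice by 0.49 and Tpsab1 by 0.03, the opposite signs. Averaged as linear ratios, an alternative chosen after the data were seen, the same values gave 1.99 in mutant and 2.29 in null mice for Cpa3. For Tpsab1 they gave 1.26 in mutant and 1.28 in null mice, a null over mutant ratio of 1.016 against the authors' 2.0. Both are then lower in mutant mice. The log2 difference of Tpsab1 also turned negative with the scaling, at -0.025 from processed signals and -0.16 with median centring. Why the authors' values differ was not tested.

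Of 25 other mast cell genes, 18 passed the filter and 0 were called in any comparison. Their median log2 ratio was 0.23 and 0.24 in mutant mice 1 and 2, against -0.08 and 0.39 in null mice 1 and 2, where the medians of all probes lay between -0.01 and 0.03. The brightest were Gata2, a transcription factor of mast cells and other lineages, at 0.40 and 0.78 in mutant, against 0.13 and 0.24 in null mice, and Srgn, the granule proteoglycan serglycin, at 0.78 and 0.84 in mutant, against 0.61 and 1.37 in null mice. Null mouse 1 was the lowest of the 4 for 12 of the 18, against 37.6% of all probes. For 3 of the 18 both mutant mice were below both null mice, as for Hdc, and for 4 both were above, against 13.6% and 16.7% of all probes. The 3, named after their values were seen, were Tph1, Ctsg and Gzmb. Tph1, the tryptophan hydroxylase of serotonin synthesis, was -0.18 and -0.07 in mutant mice, against 0.30 and 1.38 in null mice. Ctsg, cathepsin G, was 0.15 and -0.04 in mutant mice, against 0.17 and 0.47 in null mice, and Gzmb, granzyme B, was -0.08 and -0.28 in mutant mice, against -0.05 and 0.31 in null mice. The highest mutant and lowest null values of Ctsg and Gzmb were close together. The 4 were Gata2, Hpgds, Rab27b and Stxbp2, named likewise apart from Gata2. Mcpt1 and Mcpt2, proteases known from mucosal mast cells, and Ms4a2, the beta chain of the IgE receptor, were not well above background in either channel of any array.

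Of 14 genes for histamine breakdown, transport and receptors, 9 passed and 0 were called. Their medians were 0.07 and 0.11 in mutant mice, against -0.37 and 0.09 in null mice. The brightest were Aldh2, an aldehyde dehydrogenase, at 0.23 and -0.21 in mutant, against -0.47 and -0.48 in null mice, and the amine oxidase gene Maob, at 0.19 and 0.11 in mutant, against -0.24 and 0.45 in null mice. Hnmt, the methyltransferase that inactivates histamine, was at -0.15 and -0.22 in mutant, against -0.37 and -0.06 in null mice (named after its values were seen). The histamine receptor genes Hrh2 and Hrh4 were not well above background on any array. For 0 of these 9 were both mutant mice below both null mice and for 2 both above, against 13.6% and 16.7% of all probes. Slc18a2, the transporter that loads histamine into granules, also named after its values were seen, was -1.07 and 0.18 in mutant mice, against -0.89 and 0.12 in null mice.

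Of 13 mast cell growth factors and their receptors, 7 passed and 0 were called. The brightest were Il33, an alarmin that acts on mast cells through Il1rl1, at 0.21 and 0.49 in mutant, against -0.87 and 0.99 in null mice, and the chemokine gene Cxcl12, at 0.11 and 0.40 in mutant, against -0.67 and -0.18 in null mice. Kitl, the ligand of Kit, named after its values were seen, was at -0.80 and -0.03 in mutant mice, against 1.23 and 0.09 in null mice. After loess, mutant mouse 1 was the lowest of the 4 for both Kit and Kitl. With median centring Kit was lowest in null mouse 1, and Kitl is not given under that scaling.

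Other cells that can hold these transcripts gave the following levels, and their part in the Hdc and mast cell values was not tested. Among basophil genes 2 of 7 passed, Il3ra and Cd200r3, which other blood cells also make. Il3ra was 0.40 and -0.11 in mutant mice, against 0.19 and -0.04 in null mice, and Cd200r3 was 0.44 and -0.00061 in mutant mice, against -0.12 and 0.07 in null mice. Mcpt8 was not well above background on any array and Prss34 in 1 mouse only. Of 12 neutrophil and immature myeloid genes 4 passed, and Elane, Mpo, Camp and Ngp were not well above background on any array. Macrophage genes, all 10 of which passed, had medians of 0.70 and 0.78 in mutant, against -0.21 and 1.35 in null mice. Fibroblast and matrix genes, 8 of 8 past the filter, had medians of 0.25 and 0.59 in mutant, against -0.81 and 0.89 in null mice. Among the brightest of these lists, the neutrophil granule gene Ltf was -2.97 and -1.97 in mutant mice, against -2.36 and -2.17 in null mice, and Lcn2, lipocalin 2, was -0.96 and -0.82 in mutant mice, against -1.16 and -1.01 in null mice. Both genes are known from epithelium too, and both were below the pool in every mouse. The lysozyme gene Lyz2 was 1.58 and 1.25 in mutant mice, against -1.22 and 1.86 in null mice, and Ctss, cathepsin S, was 1.09 and 0.86 in mutant mice, against 0.45 and 1.97 in null mice. The matrix gene Dcn, decorin, was 0.08 and 0.49 in mutant mice, against -0.92 and 0.95 in null mice, and Mgp, matrix Gla protein, was -0.18 and 0.41 in mutant mice, against -0.35 and 0.87 in null mice. Leukocyte genes, 6 of 6 past the filter, had medians of 0.28 and 0.26 in mutant mice, against -0.18 and 0.70 in null mice. Coro1a, coronin 1A, was at 0.24 and -0.16 in mutant mice, against -0.95 and 0.67 in null mice. Cd52, a surface protein of lymphocytes, was at -0.61 and 0.66 in mutant mice, against -0.37 and -0.01 in null mice. Its mean log2 intensity was 13.35, against 6.42 to 8.70 for the others of that list, and which cells gave its signal was not tested. Null mouse 1 was lowest for 9 of the 10 macrophage and 8 of the 8 fibroblast genes, against 37.6% of all probes. Null mouse 2 had the highest median in both lists. So null mouse 1 was lowest and null mouse 2 highest, as for the granule proteases. That order of medians was the same under processed signals and median centring.

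**Figure D4:**
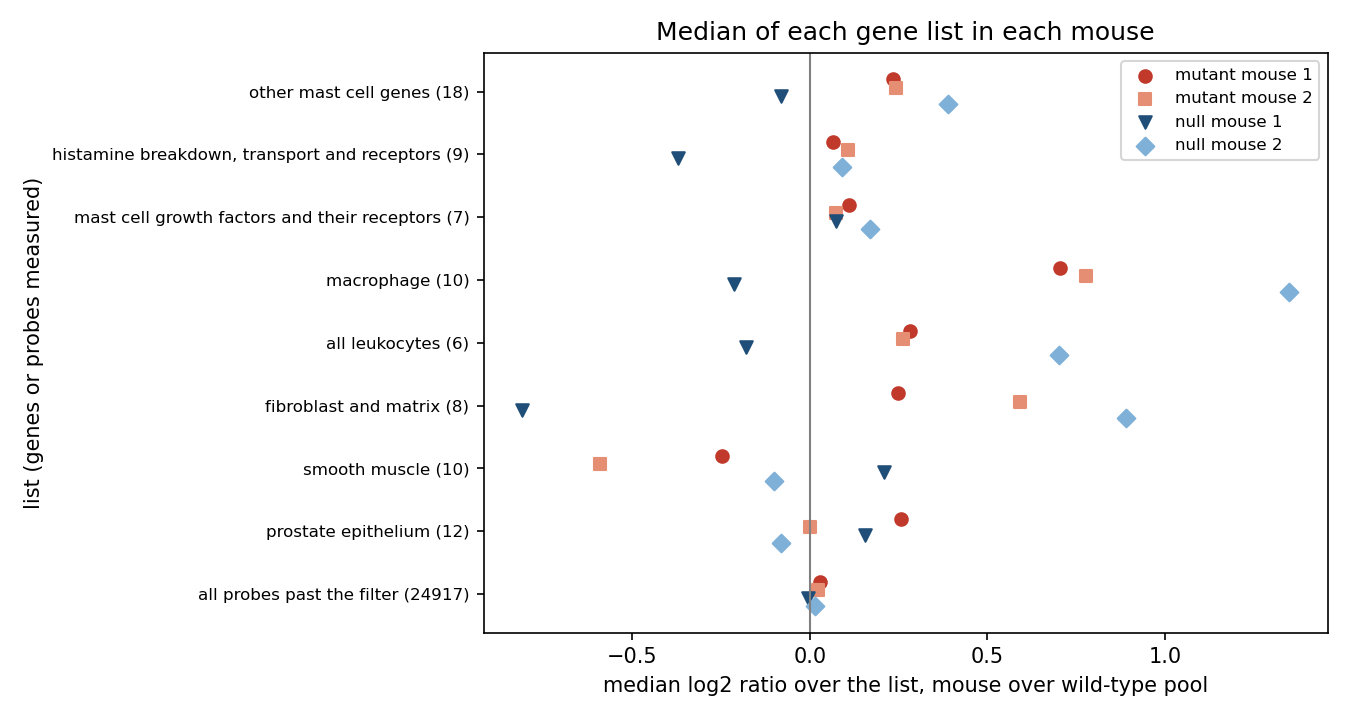
Median log2 ratio of mouse over pool (horizontal axis) of each gene list (vertical axis, with the number of genes or probes measured), 1 point per mouse. Macrophage and fibroblast lists put null mouse 1 lowest and null mouse 2 highest, while smooth muscle genes are lower in both mutant mice than in both null mice after loess. With median centring the smooth muscle medians were 0.92 and 0.48 in mutant mice, against 0.41 and 0.79 in null mice.

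The genes nearest to Hdc were found by the root mean square distance of their 4 log2 ratios from those of Hdc, over 21349 probes with a gene symbol. Septin9, a cytoskeletal septin, was nearest at 0.08, with -0.84 and -0.74 in mutant, against 0.15 and -0.07 in null mice. Rbpms, an RNA-binding protein gene, followed at 0.13, then Cnn2, a calponin, and Sh3bgr at 0.14 each and the small heat shock protein gene Hspb8 at 0.15. Within 0.3 of Hdc lay 183 of those 21349 probes. The distance uses the values by which Hdc was chosen, so it is a description and no test. Smooth muscle genes, a list of 10 that all passed, also had medians lower in both mutant mice, at -0.25 and -0.59, than in the null mice, at 0.21 and -0.10. For 7 of the 10 the genotypes did not overlap, mutant lower, against 13.6% of all probes, and 0 of the 10 were called. This depended on the scaling, since the count was 6 from processed signals and 1 with median centring, where the medians relative to all probes were 0.31 and -0.08 in mutant mice, against 0.45 and 0.37 in null mice. Without null mouse 1, both mutant mice were below the remaining null mouse for 7 of the 10, as for 30.3% of all probes. Without null mouse 2 they were below the remaining one for 9. The share over all probes was not computed for this count, nor for the counts under the other scalings. Those counts therefore cannot be set against a background. Myl9 had no value in null mouse 2 after loess, so it could not add to either count of 7. Tpm2, a tropomyosin, was at -1.29 and -0.92 in mutant, against 0.20 and -0.57 in null mice, and Cnn1, a smooth muscle calponin, at -0.09 and -0.54 in mutant, against 0.52 and 0.18 in null mice. The part of smooth muscle content in the Hdc values was not tested.

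**Figure D5:**
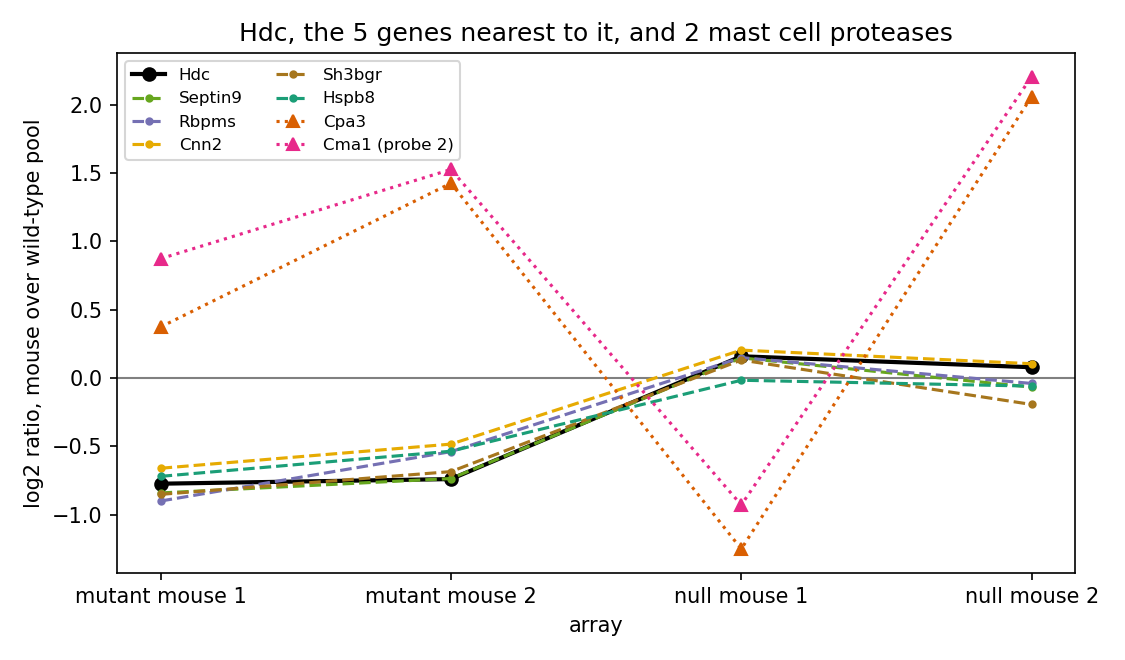
Log2 ratio of mouse over pool (vertical axis) on the 4 arrays (horizontal axis) for Hdc, the 5 genes nearest to it, and the proteases Cpa3 and Cma1 by its brighter probe. Lines only join the values of 1 gene. Hdc stays between -0.77 and 0.16, while Cpa3 runs between -1.25 in null mouse 1 and 2.06 in null mouse 2.

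Promoters of Hdc and of proteases, which differed in their order of mice, were set side by side, from RefSeq in build GRCm38.p6, as the 250 bases before the start of each gene. The capitals mark GATA or its reverse complement TATC, the core bound by factors such as Gata2. Of the 6 member genes with a promoter entry, 5 held it, Kit being the exception, and 53.6% of all 32851 windows of this length held it. The windows lie at chr2:126618679-126618928, chr3:20242182-20242431 and chr14:55944676-55944925, all on the minus strand. There were 2 matches in Hdc, 3 each in Cpa3 and Cma1 and 1 in Mcpt4, whose window is not shown, and the tryptases had no entry matched here.
Hdc: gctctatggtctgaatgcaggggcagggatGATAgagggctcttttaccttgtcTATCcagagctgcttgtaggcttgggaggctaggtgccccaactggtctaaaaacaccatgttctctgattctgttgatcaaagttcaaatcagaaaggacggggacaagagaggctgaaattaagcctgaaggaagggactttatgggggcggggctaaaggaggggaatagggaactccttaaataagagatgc
Cpa3: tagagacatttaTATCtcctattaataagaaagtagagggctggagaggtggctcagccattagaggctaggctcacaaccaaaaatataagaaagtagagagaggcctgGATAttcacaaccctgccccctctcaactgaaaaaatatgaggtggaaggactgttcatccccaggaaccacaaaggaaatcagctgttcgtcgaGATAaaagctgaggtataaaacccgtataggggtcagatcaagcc
Cma1: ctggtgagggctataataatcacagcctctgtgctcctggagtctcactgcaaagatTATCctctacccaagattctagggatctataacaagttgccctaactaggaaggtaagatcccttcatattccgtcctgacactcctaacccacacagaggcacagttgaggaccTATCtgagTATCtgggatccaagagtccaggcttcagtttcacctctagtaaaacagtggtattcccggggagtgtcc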

How the data were processed

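Prostate RNA of 4 mice was measured on 4 two-colour arrays. The deposited scanner files give spot brightness as intensity (mean signals, background medians and processed signals), read with Agilent Feature Extraction 9.5.1.1 per the file headers, and with 8.5 in the submitters' processing notes. The processed signals are, per the file headers, background-subtracted and dye-normalised, and the deposited log ratio is a log10 of red over green. The authors' deposited table holds group means as a linear ratio, and its further scaling is not given in the sources used here.

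Mean signals were corrected with normexp (offset 50) and normalised by loess within each array with limma 3.58.1 (R 4.3.3). Weight 0 was given to control spots, outlier spots were left out and spots of a probe were averaged. No spot was saturated (0 readings). Probes stayed in if well above background for both mice of 1 genotype, or for the pool on all 4 arrays, which left 24917 probes. Ratios were fitted with lmFit and eBayes, a term per genotype, with Benjamini-Hochberg adjustment over all of them. The labels name individual mice. The number of arrays limits precision.

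Simulated data for mutant against null over 24852 probes gave 0 of 50 changes of 1 log2 unit recovered, 21 of 50 of 2, 42 of 50 of 3 and 50 of 50 of 4. The simulation also gave 7 false calls. Members and lists were chosen with earlier results of these data known. Named genes were all member probes, the 2 brightest genes of each other list where none was called, and the 5 genes nearest to Hdc. Other genes with printed values are marked as named after their values were seen, and list genes named only as not well above background were picked for that. Names came from the GRCm38.p6 RefSeq table. Alternatives were Agilent processed signals, median centring, Aquantile, an offset of 10, other filters, outlier spots kept, the brightest probe per gene, a replicate block and leaving out each mouse.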

Additional observations from a re-analysis of the deposited data

Results flagged for a closer look

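The pool signal of the Fcer1a probe stood apart on 1 array. The same pool gave 66.2 scanner units on the array of mutant mouse 1 and 7.34, 3.49 and 7.79 on those of mutant mouse 2 and null mice 1 and 2. The gap to the nearest array was 0.931 of the whole range, above the critical value of 0.829 for 4 values. Chance flags about 1 in 20 such groups, and 10 probes were examined, 1 of which was above it. The mouse signal of that spot, 284 units, was also the highest of the 4.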

How the results depend on the processing

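Over all probes, 0 were called between mutant and null mice under every alternative except leaving out mice, where the count was 0 to 9, with 9 without null mouse 2. With the replicate block it was 0 and the Hdc difference was -0.88. The number is only a name (correlation of deviations 0.0036 between same-numbered mice). Against the pool, 1 probe was called in mutant mice, 0 from processed signals, with median centring, without a filter and with outlier spots kept, 3 with an offset of 10, 2 with both channels above background on all arrays and 2 with the brightest probe per gene, and 0 to 2 on leaving out a mouse. In null mice 0 were called, 2 with an offset of 10, 2 with both channels above background, and 0 to 380 on leaving out a mouse, with 380 without null mouse 2. Without it the spread comes from the 2 mutant mice alone, and the lone null mouse, the dim one, is assumed to vary like them. Aquantile left the member differences as they were. Processed signals widened Cpa3 to 2.46, Tpsb2 to 1.49, Fcer1a to -0.76, the Cma1 probes to 1.26 and 1.46 and the Mcpt4 probes to 1.17 and 1.19 and Kit to -0.36. Median centring gave Hdc -0.445, Cpa3 0.88, the brighter Cma1 probe 0.98 and the brighter Mcpt4 probe 0.99. An offset of 10 gave Cpa3 0.93, Tpsb2 0.67, Tpsab1 0.14, Fcer1a -0.17, the Cma1 probes 0.32 and 0.88 and the dimmer Mcpt4 probe 0.66. Median centring turned Kit to 0.089, Tpsab1 to -0.16 and Fcer1a to 0.12, and processed signals turned Tpsab1 to -0.025. On leaving out a mouse the differences ran between -1.16 and 2.15 for Cpa3, -0.51 and 0.11 for Kit, -0.37 and 1.0 for Tpsb2, -0.37 and 0.43 for Tpsab1, -0.34 and 0.23 for Fcer1a, -0.78 and 1.01 and -1.01 and 2.13 for the Cma1 probes, and -0.21 and 1.06 and -0.41 and 1.60 for the Mcpt4 probes. Hdc ran between -0.92 and -0.84. Of the 9 mast cell probes, 0 had both mutant mice below the null mice, and 0 to 9 on leaving out a null mouse. For both mutant mice above, the count was 0, and 0 to 8. These counts without a null mouse, the linear averaging, and the scalings of the mast cell counts and of the smooth muscle, macrophage and fibroblast lists, were chosen after the data were seen. The causes were not tested. Dim signals limit Tpsb2, Tpsab1 and Fcer1a most.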

Other observations

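Mitf, a transcription factor that mast cells and melanocytes need, was too dim for the filter but was bright in 1 mouse. It was looked at after its values were seen. Its probe of 10 spots gave a mouse signal of 347 units in mutant mouse 1, 26.4 in mutant mouse 2, 1.08 in null mouse 1 and 16.1 in null mouse 2, against 2.34 to 6.60 units in the pool. The log2 ratios were 1.54 and 0.04 in the mutant mice, against -0.09 and 0.11 in null mice. A second probe gave 39.2 units in mutant mouse 1, with a log2 ratio of 0.05, and was not well above background in the others, so the probes disagree on size. By log2 ratio after loess, none of the mast cell protease probes was highest in mutant mouse 1. By mouse signal, both Mcpt4 probes and the Tpsab1 probe were highest there, on the array with the highest median mouse signal. A link of Mitf with the proteases was not tested. The melanocyte genes Dct, Tyr, Tyrp1 and Mlana were not well above background on any array, and Pmel, also named after its values were seen, was at 0.78 and 0.29 in mutant, against -0.08 and 0.49 in null mice.

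Hal, which breaks down histidine by another route than Hdc, was at 1.46 and 0.29 in mutant mice 1 and 2, against -0.66 and 1.73 in null mice 1 and 2. Il1rl1, the receptor of Il33, was at 0.47 and 0.78 in mutant, against -0.20 and 1.55 in null mice. Both were named after their values were seen, and in both null mouse 1 was the lowest and null mouse 2 the highest.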
